A study of Mus musculus with 6 samples.

Results

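The genes described here encode negative regulators of mitogen-activated protein (MAP) kinase signalling in type-2 innate lymphoid cells (ILC2s) of visceral adipose tissue. They were taken by symbol from the deposited gene table, and all 10 listed genes were found among its 53278 genes. They are Dusp1, Dusp2, Dusp4, Dusp5, Dusp6, Dusp10, Spry1, Spry2, Spred1 and Spred2. ILC2s were sorted from 8-week-old C57BL/6 mice that had all received 3 intraperitoneal injections of 1 µg IL-33, so both groups were activated cells. The culture medium held 10 ng/mL each of IL-2 and IL-7, to which the study added either 5 µg/mL of DTA-1, an antibody that activates the TNF receptor family member GITR, or the isotype control antibody. The labels give 48 h of culture, whereas another passage of the study gives a shorter time. Each group had 3 libraries, and the sources used here do not say whether these came from separate mice or cultures, so the p-values measure the spread between these libraries, which may be technical. The comparison asks whether GITR engagement changed the transcripts of these feedback genes.

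MAP kinases (ERK, JNK and p38) are switched on by phosphorylation of a threonine and a tyrosine in their activation loop, and the dual-specificity phosphatases of the DUSP family remove both phosphates. Sprouty and Spred proteins act higher up and restrain the step from growth factor and cytokine receptors through RAS and RAF to ERK. Many of these genes are themselves transcribed when MAP kinases are active, which closes a feedback loop. Their transcripts are therefore often read beside early response genes such as Egr1.

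Total counts were 34557215 to 35131329 in isotype control and 30569351 to 32492849 in DTA-1. For a gene without reads the upper limit was 3 counts, or 0.0854 to 0.0981 CPM by library, counting error alone considered. The deposited values are expected counts, and a normalized count below is a CPM after TMM normalization. Of all genes 14361 passed the filter on low counts, and so did all 10 feedback genes. A gene was called differentially expressed at an edgeR adjusted p under 0.05 with a change of at least 1.5-fold. The library labelled DTA-1 replicate 1 stood apart from the other DTA-1 libraries. Its chi-square distance per degree of freedom to each isotype control library was 9.64 to 11.3, whereas the distances to the other DTA-1 libraries were 27.1 and 28.2. Isotype control libraries were 11.4 to 17.0 from each other. DTA-1 replicates 2 and 3 were 11.4 from each other and 26.4 to 37.9 from isotype control. Why DTA-1 replicate 1 resembled isotype control was not tested, and it was kept under its label. Most results below are given with and without it. Because it was picked out from these same data, leaving it out widens differences between the groups by that choice. All 13 ILC2 marker genes passed the filter, and their summed level was 14561 to 15323 normalized counts in isotype control and 15545 to 20165 in DTA-1. Of these genes 6 were higher and 7 lower with DTA-1, so the higher sum does not hold for the list as a whole. The 6 T cell genes summed to 40.1 to 53.3 normalized counts over the 6 libraries, with Cd8a at 0. The macrophage genes summed to 6.44 to 12.2, the B cell genes to 16.6 to 18.2 with Ms4a1 and Pax5 at 0, the neutrophil genes to at most 1.35, the mesothelial genes to at most 1.41 and the adipocyte genes to at most 0.454. The mast cell and basophil genes summed to 11.6 to 16.9 in isotype control and 12.4 to 30.7 in DTA-1, and the endothelial genes to 18.4 to 24.4 and 10.6 to 18.3. The 10 fibroblast genes summed to 7.07 to 16.7 normalized counts in isotype control and 0.737 to 6.78 in DTA-1, and all 7 that were tested were lower with DTA-1. In bulk RNA, fewer cells of a type and less RNA per cell cannot be told apart. GITR itself (Tnfrsf18) had 665.5 to 746.5 normalized counts in isotype control and 657.2 to 755.8 in DTA-1.

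The feedback genes covered a wide range of levels in these cells. For a comparison between genes, normalized counts were divided by the exonic length in kilobases. Dusp6, the cytoplasmic phosphatase of ERK, led with 229.9 ± 20.5 normalized counts per kilobase (SD over all 6 libraries), above 98.5% of the tested genes with a known exonic length. Dusp5, a nuclear phosphatase of ERK, followed at 48.8 ± 7.64, and Spry1 at 37.2 ± 4.04. Dusp1 had 15.4 ± 0.998, Dusp4 9.68 ± 1.67, Dusp2 4.79 ± 0.804 and Spred1 3.92 ± 0.523 normalized counts per kilobase. Dusp10 (1.76 ± 0.280), Spred2 (1.35 ± 0.182) and Spry2 (0.473 ± 0.0757) were the lowest. In this order the ranges over the libraries overlapped between Dusp5 and Spry1, between Dusp2 and Spred1 and between Dusp10 and Spred2, so the ranges alone do not separate these neighbours. Compared within each library, Dusp5 was above Spry1 and Dusp10 above Spred2 in 6 of 6, and Dusp2 above Spred1 in 5. The ranges of the other neighbours did not overlap. Dusp6 alone made up 63.6% to 67.0% of the summed level per kilobase of the 10 genes in every library, DTA-1 replicates included.

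**Figure D1:**
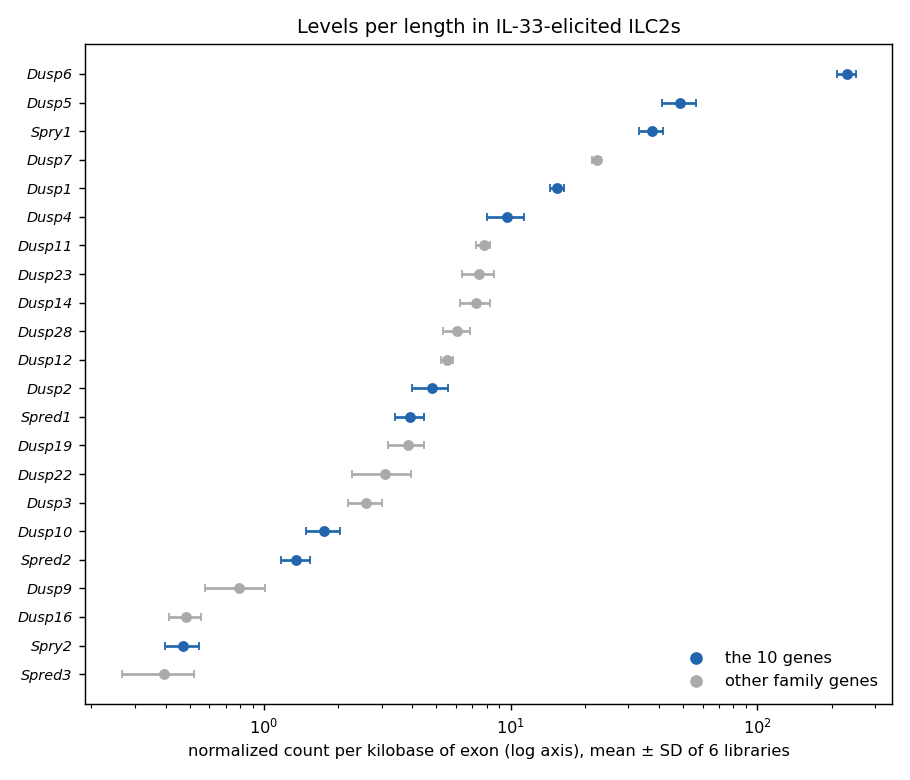
Levels per length of the phosphatase, Sprouty and Spred genes that passed the filter and have an exonic length. The x axis is the normalized count per kilobase of exon on a log scale, points are means and bars SDs of all 6 libraries, blue for the 10 genes and grey for other genes of the families; Dusp6 stands at 229.9 and Spry2 at 0.473.

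Kinases on which the phosphatases act were measured in the same libraries. In isotype control Mapk3 (ERK1) had 36.3 ± 2.59 normalized counts per kilobase (SD, n = 3), against 216.7 ± 12.6 for Dusp6. Mapk14 (p38α) had 30.9 ± 0.991, Mapk9 (JNK2) 13.4 ± 0.139 and Mapk8 (JNK1) 0.428 ± 0.0869. Of the JNK genes Mapk9 was far above Mapk8. With DTA-1 the log2 fold changes were −0.08 for Mapk3, −0.04 for Mapk14, 0.05 for Mapk9 and −0.38 for Mapk8, with edgeR adjusted p values from 0.784 to 0.942. Without DTA-1 replicate 1 they were −0.19, 0.02, −0.02 and −0.57 in the same order, with edgeR adjusted p values from 0.364 to 0.936. Both remaining DTA-1 libraries were then below every isotype control library in Mapk3 and Mapk8, which held for 15.9% of all genes.

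None of the 10 feedback genes was differentially expressed with all 6 libraries (0 genes by edgeR), which is also the share among all genes tested (0%). At an unadjusted edgeR p under 0.05 there were 2, Dusp5 and Dusp6, both higher with DTA-1, where 4.11% of all genes were higher at this threshold and 3.11% lower. Neither reached 1.5-fold. By DESeq2's Wald test 0 of the 10 were called as well. The median log2 fold change of the 10 genes was 0.05, against −0.01 over all genes, with 7 higher and 3 lower. For 8 of the 10 genes the 95% confidence interval of the fold change lay wholly within 1.5-fold in either direction, as it did for 58.9% of all genes. The exceptions were Dusp2 and Spry2.

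**Figure D2:**
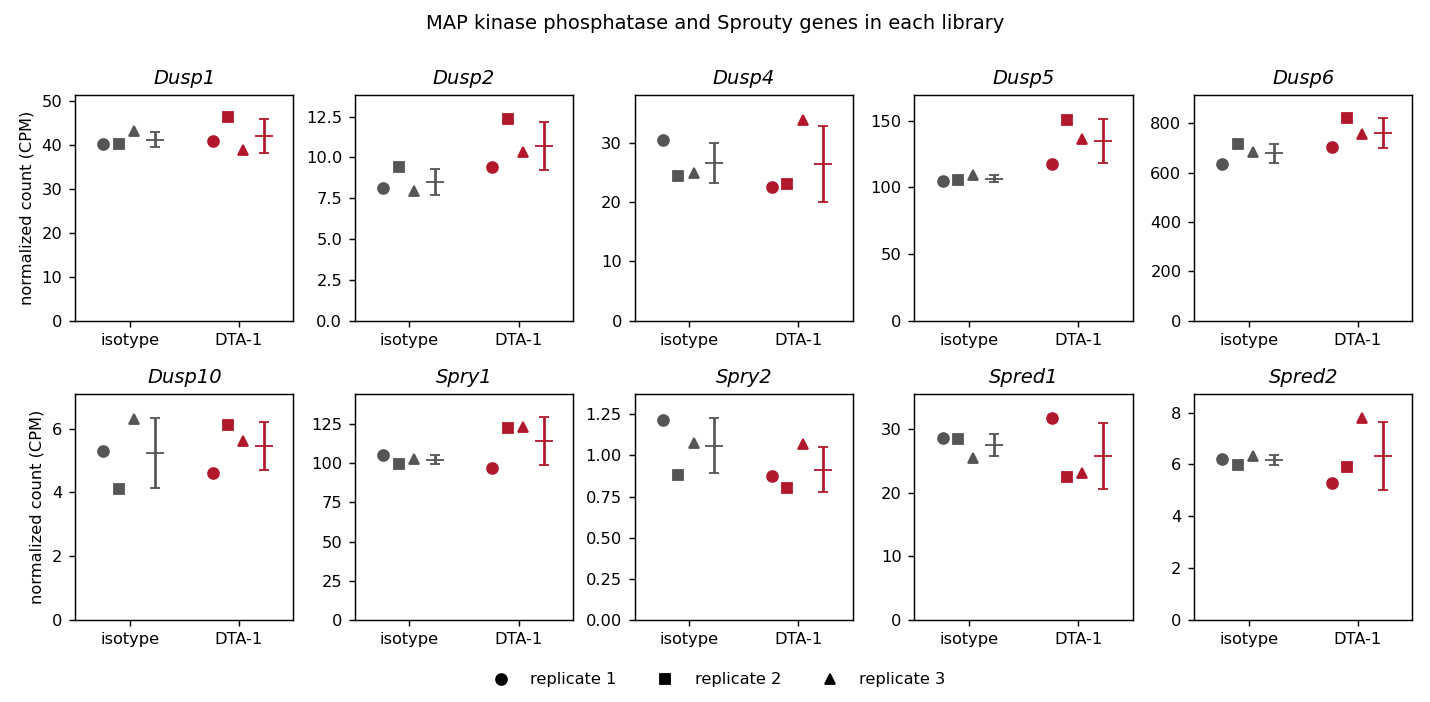
Normalized counts (CPM) of the 10 genes in each library, isotype control in grey and DTA-1 in red, with the replicate given by the marker shape and mean ± SD (n = 3) beside the points; each y axis starts at 0. The groups do not overlap in Dusp5, from 104.5 to 109.4 against 117.9 to 150.9.

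Dusp5 was the feedback gene with the clearest difference (chromosome 19, 53529109 to 53542431 in GRCm38, the build of all positions given here). In order of replicate number, isotype control libraries held 104.5, 105.2 and 109.4 normalized counts of Dusp5, whereas those of DTA-1 held 117.9, 150.9 and 136.0. Every DTA-1 library lay above every isotype control library, which held for 5.26% of all genes, and DTA-1 replicate 1 was the closest to the control. The means were 106.4 ± 2.67 and 134.9 ± 16.6 (SD, n = 3 each). This 1.27-fold difference, 0.34 ± 0.09 on the log2 scale (standard error), had a 95% confidence interval from 0.15 to 0.54 and an unadjusted p of 0.00255, but an adjusted p of 0.627 in edgeR. Leaving out single libraries gave log2 values from 0.26 (DTA-1 replicate 2 omitted) to 0.43 (DTA-1 replicate 1 omitted). In the latter comparison Dusp5 rose by 1.35-fold and edgeR gave an adjusted p of 0.0167, the lowest of the alternatives, whose highest was 0.999. It was the 1 gene of the 10 to pass the adjusted threshold there, which 1.35% of all genes passed in that direction, and it was short of 1.5-fold.

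The sequence before the start site of Dusp5 is shown because it holds the only CArG box matches found among these genes. RefSeq promoter windows of GRCm38.p6, from 250 bases before to 50 bases after the start, were found for 9 of the 10 genes, all but Dusp4. Positions count from the RefSeq start site, which for Dusp5 (53529145) and Dusp1 (26508472) lies inside the gene of the deposited table. The same holds for Dusp10 and Spred2, whose windows are not shown. The 9 windows were searched on both strands for the CRE (TGACGTCA), AP-1 (TGANTCA) and ETS (GGAAGT) motifs. They were also searched for the CArG box of serum response factor and the κB consensus, and no match overlapped another. Dusp5 held 2 abutting CArG boxes, at positions −82 and −72 from the start site, and an ETS match on the opposite strand at position −193. Capitals mark these matches in the window at chr19:53528895-53529108 (plus strand), which is given up to the first base of the gene in the deposited table. Those at chr10:99262981-99263230 (plus strand) and chr17:26508520-26508722 (minus strand) are the windows of Dusp6, the most abundant of these genes, and of Dusp1, in which capitals mark a CRE at position −143.
Dusp5: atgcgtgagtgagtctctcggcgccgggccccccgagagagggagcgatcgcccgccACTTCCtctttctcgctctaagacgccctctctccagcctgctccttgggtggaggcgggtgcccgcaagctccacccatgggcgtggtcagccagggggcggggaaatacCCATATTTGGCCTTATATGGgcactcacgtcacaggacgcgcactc
Dusp6: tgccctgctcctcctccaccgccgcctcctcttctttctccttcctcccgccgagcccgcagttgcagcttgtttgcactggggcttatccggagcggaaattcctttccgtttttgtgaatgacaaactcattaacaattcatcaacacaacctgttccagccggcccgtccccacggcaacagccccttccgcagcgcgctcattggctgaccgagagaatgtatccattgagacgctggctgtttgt
Dusp1: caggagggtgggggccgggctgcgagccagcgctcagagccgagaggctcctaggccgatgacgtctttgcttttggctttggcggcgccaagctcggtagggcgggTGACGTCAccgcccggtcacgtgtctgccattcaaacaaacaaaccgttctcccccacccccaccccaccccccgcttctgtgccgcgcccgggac
A CArG box was present in 1.63% of all 32851 windows, a CRE in 1.79% and the ETS motif in 23.8%. Among the 9 genes the CArG box was found in Dusp5, the CRE in Dusp1 and the ETS motif in Dusp5 and Spred2. The AP-1 motif, held by 7.81% of all windows, and the κB consensus, held by 8.46%, were in 0 of the 9. A match describes these letters only, and binding was not measured. The absence of a match says only that the letters are not in this window.

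Dusp6 (chromosome 10, 99263231 to 99267489) was measured at 636.9, 715.1 and 684.1 normalized counts under isotype control against 703.0, 822.7 and 759.2 under DTA-1. DTA-1 replicates 2 and 3 were above all isotype control libraries, and DTA-1 replicate 1 was within their range. The difference was 1.12-fold, or 0.17 ± 0.07 in log2 (standard error), with 95% limits of 0.01 and 0.33 and an adjusted p of 0.677 in edgeR. Because the gene had 21734 to 25683 counts per library, counting error was only 0.647% at the isotype control mean, while those libraries varied by 5.80% (coefficient of variation). Omitting single libraries moved the log2 fold change between 0.11 and 0.22.

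None of the other phosphatase genes passed a threshold with all 6 libraries. Dusp2 (chromosome 2, 127336159 to 127338376), a nuclear phosphatase of activated lymphocytes, was measured at 8.11, 9.44 and 7.97 normalized counts under isotype control against 9.41, 12.3 and 10.4 under DTA-1. The groups overlapped only through DTA-1 replicate 1 and isotype control replicate 2, and the log2 fold change was 0.33 (95% confidence interval −0.05 to 0.71, edgeR adjusted p = 0.732). This estimate was about as large as that of Dusp5, from 281 to 385 counts per library against 3644 to 4712.
Dusp1 (chromosome 17, 26505590 to 26508519), the phosphatase that acts most on p38 and JNK in immune cells, was measured at 40.2, 40.1 and 43.1 normalized counts under isotype control against 40.7, 46.2 and 38.7 under DTA-1. Its highest and its lowest library both belonged to DTA-1, and the log2 fold change was 0.03 (95% confidence interval −0.19 to 0.24, edgeR adjusted p = 0.970). Dusp4 (chromosome 8, 34807297 to 34819894), a nuclear phosphatase of ERK and JNK, was measured at 30.4, 24.5 and 24.8 normalized counts under isotype control against 22.5, 23.0 and 33.9 under DTA-1. DTA-1 replicate 3 was the highest library of all and the other DTA-1 libraries were the lowest, so that the means were nearly equal (log2 fold change −0.01, 95% confidence interval −0.37 to 0.36, edgeR adjusted p = 0.997). Dusp10 (chromosome 1, 184013302 to 184075636), which acts on JNK and p38, was measured at 5.31, 4.11 and 6.29 normalized counts under isotype control against 4.63, 6.12 and 5.62 under DTA-1. Its DTA-1 libraries all lay within the isotype control range (log2 fold change 0.06, 95% confidence interval −0.45 to 0.57, edgeR adjusted p = 0.971). An antisense-strand gene, 1700056E22Rik, overlaps Dusp10 with at most 18 counts in a library.

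Among the Sprouty genes Spry1 was abundant, whereas Spry2 had the fewest counts of the 10 genes. Spry1 (chromosome 3, 37639947 to 37644598) was measured at 105.0, 99.3 and 102.4 normalized counts under isotype control against 96.6, 122.6 and 123.2 under DTA-1. DTA-1 replicate 1 was the lowest of all libraries, while DTA-1 replicates 2 and 3 were nearly equal and above every isotype control library. The log2 fold change was 0.16 (95% confidence interval −0.05 to 0.37, edgeR adjusted p = 0.748). Gm42922, on the opposite strand, overlaps Spry1 with at most 62 counts, against 2988 to 3928 for Spry1.
Spry2 (chromosome 14, 105891947 to 105896819) was measured at 1.22, 0.884 and 1.08 normalized counts under isotype control against 0.873, 0.801 and 1.07 under DTA-1, from 25 to 43 counts per library. Counting error alone was 16.4% at the isotype control mean and these libraries varied by 15.7%. Its log2 fold change of −0.21 had a 95% confidence interval of −1.13 to 0.70 (edgeR adjusted p = 0.942), which does not exclude a change of 1.5-fold in either direction.

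The Spred genes, whose proteins bring the RAS inhibitor neurofibromin to the membrane, differed in direction between libraries of DTA-1. Spred1 (chromosome 2, 117121374 to 117182279) was measured at 28.5, 28.3 and 25.4 normalized counts under isotype control against 31.7, 22.5 and 23.1 under DTA-1. DTA-1 replicate 1 was the highest library of all, and DTA-1 replicates 2 and 3 were below every isotype control library. The log2 fold change was −0.09 (95% confidence interval −0.40 to 0.22, edgeR adjusted p = 0.922). Spred2 (chromosome 11, 19924375 to 20024026) was measured at 6.22, 5.96 and 6.32 normalized counts under isotype control against 5.27, 5.89 and 7.78 under DTA-1, with a log2 fold change of 0.03 (95% confidence interval −0.42 to 0.49, edgeR adjusted p = 0.982). Its DTA-1 libraries lay on both sides of the isotype control libraries, which themselves varied by 3.02%, less than the counting error of 6.78%.

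With DTA-1 replicate 1 omitted, the feedback genes separated more between the groups. That library was singled out in these same data as the DTA-1 library nearest to isotype control. Its omission therefore widens differences between the groups by the choice itself. Over all genes 111 were called without it, and 0 when any other single library was omitted. None of the 10 was differentially expressed by edgeR (0 genes), where 0.744% of all genes were. At an unadjusted edgeR p under 0.05 there were 4 higher (Dusp2, Dusp5, Dusp6 and Spry1) and 1 lower (Spred1), where 7.50% of all 14911 genes tested were higher and 6.53% lower. The same 5 genes had no overlap between the remaining libraries, which held in 15.4% of all genes upwards and in 15.9% downwards. The log2 fold changes were 0.41 for Dusp2, 0.22 for Dusp6, 0.27 for Spry1 and −0.27 for Spred1, with edgeR adjusted p values of 0.337, 0.151, 0.101 and 0.338. The median over the 10 genes was 0.16, against −0.02 over all genes. Relative to the isotype control mean, the median log2 level of the 10 genes was −0.05 in DTA-1 replicate 1, 0.20 in replicate 2 and 0.22 in replicate 3, against −0.04 to 0.02 in the isotype control libraries.

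**Figure D3:**
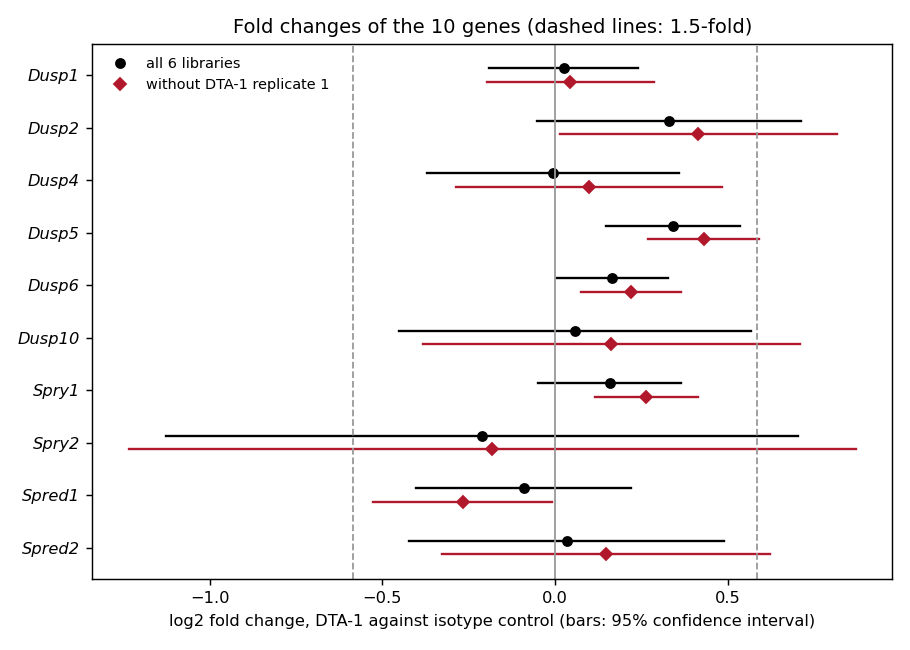
Log2 fold changes of the 10 genes, DTA-1 against isotype control, with 95% confidence intervals from edgeR, for all 6 libraries (black) and without DTA-1 replicate 1 (red); dashed lines mark 1.5-fold. The interval of Dusp5 excludes 0 in both comparisons (0.34 and 0.43) and no point reaches 1.5-fold.

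The rest of the MAP kinase pathway was read from lists of 111 further genes, of which 102 were tested with all 6 libraries. The lists were written with earlier results of these data known. Their counts and shares therefore describe these libraries and are not an independent test. With DTA-1 54 were higher and 48 lower, with a median log2 fold change of 0.02, and 0 were differentially expressed by edgeR or by DESeq2's Wald test. At an unadjusted edgeR p under 0.05 there were 11 higher (10.8%) and 2 lower (1.96%), against the 4.11% and 3.11% of all genes. The early response genes, listed from general knowledge as responsive to ERK, had 14 of 18 tested genes higher and a median of 0.13. Of them 5 were higher and 0 lower at the unadjusted threshold, and ERK activity itself was not measured. Of the RAS to ERK cascade 14 of 32 tested genes were higher (median −0.01), with 2 at the unadjusted threshold, both higher. Of the JNK and p38 cascades 16 of 25 were higher (median 0.07), with 4 higher and 1 lower at that threshold. Of the partners of Sprouty proteins 7 of 11 were higher (median 0.04), and 0 passed it. The other feedback genes had 2 of 8 higher (median −0.10) and 1 at the unadjusted threshold, which was lower. Without DTA-1 replicate 1 the medians of these lists, in the order given, were 0.18, 0.01, 0.08, 0.01 and −0.21. Of the other feedback genes 5 of 8 then had both DTA-1 libraries below every isotype control library, and 1 had both above. Over all genes these shares were 15.9% and 15.4%.

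Maff, a small MAF transcription factor gene, was the 1 pathway gene with an unadjusted edgeR p under 0.05 and a change of 1.5-fold with all 6 libraries, where 2.35% of all genes met both. It was measured at 5.12, 4.88 and 5.39 normalized counts under isotype control against 6.89, 9.26 and 8.53 under DTA-1, with every DTA-1 library above every isotype control library. By edgeR it differed by 0.68 ± 0.19 in log2 (standard error), with an adjusted p of 0.627.
Junb, which encodes an AP-1 subunit, and Rasgrp4, which encodes an activator of RAS, were differentially expressed when DTA-1 replicate 1 was left out. They were 2 of 103 wider genes tested there, where 0.744% of all genes were called. That library was picked out from these same data, as stated above. Junb was measured at 319.5, 295.5 and 339.9 normalized counts under isotype control against 321.4, 517.4 and 551.1 under DTA-1. Its log2 fold change was 0.54 with all 6 libraries (edgeR adjusted p = 0.627) and 0.75 without DTA-1 replicate 1 (edgeR adjusted p = 0.000610, the lowest of alternatives that reached 0.999). Rasgrp4 was measured at 23.9, 21.4 and 23.1 normalized counts under isotype control against 22.1, 35.5 and 37.7 under DTA-1. It differed by 0.48 in log2 (edgeR adjusted p = 0.639), or by 0.68 without DTA-1 replicate 1 (edgeR adjusted p = 0.0140, again the lowest of alternatives that reached 0.999). In both genes DTA-1 replicate 1 was within the isotype control range, as it was in Dusp6.

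The remaining genes of the lists that passed an adjusted p under 0.05 in that comparison, all short of 1.5-fold, are named here after their values were seen. Over all 14911 genes tested there, 202 passed it higher and 51 lower at any fold. The early response transcription factor gene Egr1 was measured at 67.1, 65.8 and 72.1 normalized counts under isotype control against 84.8, 103.0 and 92.5 under DTA-1, with no overlap between the groups. Its log2 fold change was 0.45 with all 6 libraries (edgeR adjusted p = 0.491) and 0.52 without DTA-1 replicate 1 (edgeR adjusted p = 0.0144), and DESeq2's Wald test gave the lowest adjusted p of the alternatives, 0.00442. The early response gene Ier2 was higher by 0.30 in log2 (edgeR adjusted p = 0.627), or by 0.40 without that library (edgeR adjusted p = 0.0136). Mapkapk2, whose product is a kinase downstream of p38, had 0.24 (edgeR adjusted p = 0.655) and 0.35 (edgeR adjusted p = 0.0126). Zfp36l2, an RNA-binding regulator of mRNA decay, was the 1 with the other direction, at −0.27 (edgeR adjusted p = 0.657) and −0.42 (edgeR adjusted p = 0.0211).

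**Figure D4:**
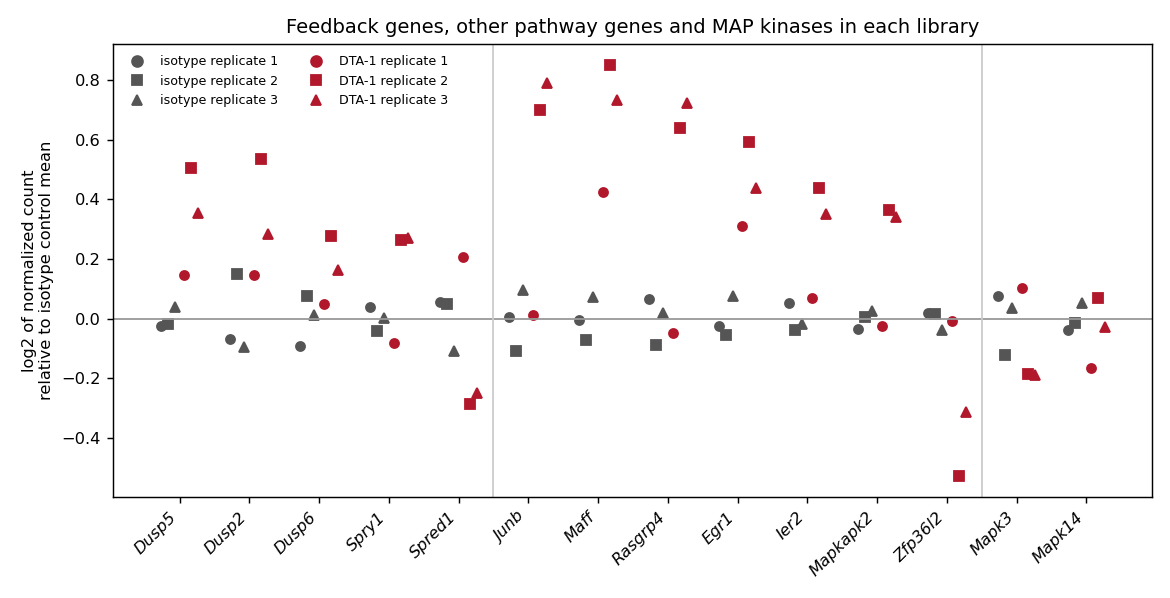
Log2 of the normalized count relative to the isotype control mean in each library, for the 5 feedback genes whose groups separated without DTA-1 replicate 1 (left), the other pathway genes described (middle) and the kinase genes Mapk3 and Mapk14 (right). DTA-1 replicate 1 (red circles) lies nearer 0 than replicates 2 and 3 in Dusp5, Junb, Maff and Rasgrp4. It is on the other side of 0 from both in Spry1, Spred1, Rasgrp4, Mapkapk2 and Mapk3.

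Genes induced by cell handling were read beside these values. The summed level of 9 such genes, among them heat shock protein genes and Nr4a1, was 3237 to 3310 normalized counts in isotype control, 3351 in DTA-1 replicate 1 and 3810 and 3770 in DTA-1 replicates 2 and 3. Of the 9, 6 were higher and 3 lower with DTA-1 (median log2 fold change 0.02), the groups overlapped in every one, and 1 passed an unadjusted edgeR p under 0.05, the chaperone gene Hspa8. Without DTA-1 replicate 1 their median was 0.16, as was that of the 10 feedback genes. Both remaining DTA-1 libraries were then above every isotype control library in 3 of the 9, against 15.4% of all genes, and below in 0. At an edgeR adjusted p under 0.05 there was 1, which was higher. The part of the handling genes in the result for Dusp5 was not tested. The fibroblast genes, which sum to no more than 16.7 normalized counts in any library, were lower with DTA-1, and their part was not tested either.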

How the data were processed

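RNA of sorted ILC2s was sequenced with 3 libraries for isotype control and 3 for DTA-1. The authors aligned and quantified the reads in Partek and deposited expected counts, estimated reads per gene without normalization. The submitters' processing notes name bcl2fastq 2.17.1.14, STAR 2.5.3a, Partek and mm10. The annotation release, the use of strand and the assignment of shared reads are not given in the sources used here. Of the 49721 symbols shared with GENCODE vM21, 47717 had the same span once the table's stop was read as 1 past the last base. No column belonged to another series.

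Expected counts were rounded (83.1% of the values were whole to within 0.01) and fitted with edgeR 4.0.16 under R 4.3.3, DTA-1 against isotype control with no covariate: low counts were removed by filterByExpr, libraries scaled by TMM, and robust quasi-likelihood F tests adjusted by Benjamini-Hochberg over all genes. The procedure was tested on simulated data. The study names no model for this comparison, and its threshold of adjusted p under 0.05 and 1.5-fold was used. Standard errors are the log2 fold change divided by the square root of F. An exact permutation test of 3 against 3 cannot go below p = 0.1 (two-sided), so none was run. Exonic length is the union of exons of GENCODE vM21 transcripts within the table's span. The 10 genes and the lists of pathway and marker genes were chosen with earlier results of these data known. Of the pathway lists, genes were named that had an unadjusted p under 0.05 and 1.5-fold, or were called with 1 library left out, besides MAP kinase genes, of which 1 is not reported here. Alternatives were DESeq2 1.42.0 size factors or total counts, DESeq2's Wald test, limma-trend (limma 3.58.1, prior count 2), no filter, at least 10 counts in every library, a replicate block, leaving out each library, no fold limit and an unadjusted p. An unadjusted p without a fold limit, and no fold limit without DTA-1 replicate 1, were added after the data were seen. The sources used here do not say whether same-numbered libraries were prepared as pairs, and the main fit used no pairing. Promoter windows are RefSeq's (GRCm38.p6). Protein sequences were not used here. Other steps used Python 3.11.15, numpy 2.4.6, pandas 2.3.3 and, for figures, matplotlib 3.10.9.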

Additional observations from a re-analysis of the deposited data

How the results depend on the processing

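The count of differentially expressed genes was 0 with all 6 libraries and 0 to 111 when single libraries were omitted, the highest without DTA-1 replicate 1. It was 25 with DESeq2's Wald test and 2 without a filter on low counts (Ctgf and Pdgfra). At an unadjusted p it was 337 with 1.5-fold and 1037 without a fold limit, and it was 253 without DTA-1 replicate 1 and without a fold limit. Of the 10 feedback genes 2 passed an unadjusted p without a fold limit (Dusp5 and Dusp6), and 1 passed an adjusted p without DTA-1 replicate 1 and without a fold limit (Dusp5). All other alternatives left their count at 0. Of the wider pathway genes 0 to 2 were called with each library left out (2 without DTA-1 replicate 1), 1 at an unadjusted p and 1.5-fold (Maff), 13 at an unadjusted p alone, and 6 without DTA-1 replicate 1 and a fold limit. With the replicate number as a block the count over all genes was 1 (Chil3) and that of the feedback genes 0. Same-numbered libraries did not deviate together (correlations of their deviations −0.0069, −0.0028 and 0.015), so no pairing was used.

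Of 130 log2 fold changes of the 10 genes under an alternative, 120 kept their direction and 10 turned, all of genes near 0. Omitting single libraries gave ranges of −0.045 to 0.079 for Dusp1, −0.22 to 0.11 for Dusp4, −0.090 to 0.21 for Dusp10, −0.27 to 0.0020 for Spred1 and −0.14 to 0.15 for Spred2. With total counts, which apply no TMM factor, Dusp1 was at −0.012 and Spred2 at −0.0036. The TMM factors were 1.01 to 1.02 in isotype control and 0.969 to 1.01 in DTA-1. The cause of the turns when libraries were omitted was not tested. Dusp2, Dusp5, Dusp6 and Spry1 were higher and Spry2 lower with DTA-1 under every alternative run. Spry2 had the lowest depth, with 25 to 43 counts.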

Other observations

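Of 14 other dual-specificity phosphatase genes listed, 11 passed the filter, 3 higher and 8 lower with DTA-1, with a median log2 fold change of −0.04. None passed an unadjusted edgeR p under 0.05 (0 genes, and 0 called by DESeq2's Wald test), where 4.11% of all genes were higher and 3.11% lower. The following were named after their values were seen. Dusp7, a cytoplasmic ERK phosphatase related to Dusp6, was the most abundant of them at 22.3 ± 0.857 normalized counts per kilobase (SD over all 6 libraries), between Spry1 and Dusp1, and differed by −0.06 in log2 with DTA-1 (edgeR adjusted p = 0.894). Dusp22 had the largest fitted change of the 11, −0.37 (edgeR adjusted p = 0.746). Dusp8 and Dusp15 had at most 4 counts and 1 count in a library, and Dusp18 at most 18, and these 3 were removed by the filter. Of 3 other Sprouty and Spred genes listed 2 were tested, both at low levels. Spry4 was at 0.855 to 1.41 normalized counts under isotype control against 0.993 to 2.13 under DTA-1, and Spred3 at 1.89 to 3.66 against 1.38 to 2.65, with overlapping groups in both genes and edgeR adjusted p values of 0.853 and 0.839.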
